A study of Mus musculus with 12 samples.

Results

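Genes for ribosome assembly and the nucleolus were examined for splicing changes in newly made RNA after acute loss of METTL3, the catalytic subunit of the enzyme complex that writes N6-methyladenosine (m6A) into RNA. A gene belonged to the group if it was *Ncl*, *Npm1*, *Fbl*, *Dkc1*, *Nolc1*, *Imp3* or *Imp4*. It also belonged if its symbol fell in the Utp, Nop, Nol, Rrp, Gnl or Tsr series or on a short list. That list held further genes such as *Wdr12*, *Nle1*, *Pa2g4* and *Rrn3*. The rule used names only, but it was chosen with earlier results of these data known. It gave 85 tested splicing clusters with 245 introns in 39 genes, of 7263 tested clusters with 20437 introns in the whole data set. A further 4 clusters of these genes were listed but not tested, among them the only cluster of *Fbl*, which encodes the methyltransferase of box C/D small nucleolar ribonucleoproteins (snoRNPs). No cluster of *Imp3*, *Rrs1*, *Bop1*, *Bms1*, *Heatr1*, *Mphosph10*, *Ebna1bp2* or *Nob1* was listed.

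The cells were female mouse embryonic stem cells from a cross of 129S and Cast, grown on mitomycin C-inactivated feeder fibroblasts. All carried an inducible *Xist* and an FKBP12(F36V) tag on *Mettl3*, through which the small molecule dTAG-13 directs the protein to degradation. In the dTAG group the cells had 3 h of dTAG-13, and in the Ctrl group 0 h. Both groups were labelled for 30 min with 4-thiouridine (4sU), and the labelled RNA was recovered and sequenced. Each group held 6 samples, 3 replicates of each of 2 lines (C3 and H5), and each line is a single clone. The deposited tables pool the lines and give neither read counts nor values for single samples, so the depth is unknown, no replicate error can be given for a percent spliced in (PSI), and how far single samples overlap cannot be shown. Nothing in the labels says whether replicates of a clone were separate cultures, so the spread within a clone may be technical only. The authors' test pooled both clones, so the spread behind its p-values can also hold differences between the 2 clones. The tables hold no expression level, and of the cell type markers only the presence of a tested cluster could be read, which was so for 7 of 10 stem cell markers (*Nanog* and *Esrrb* among them) and 1 of 6 fibroblast markers (*Fn1*).

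Ribosomes are assembled in the nucleolus, where RNA polymerase I transcribes the ribosomal RNA (rRNA) precursor around which the factors of this group gather. The small-subunit processome folds and cleaves the part that becomes 18S rRNA, and another set of factors builds the large subunit around 28S rRNA. snoRNPs guide 2′-O-methylation and pseudouridylation of the precursor, and many of their guide RNAs are cut out of introns of protein-coding genes, including genes for the assembly factors themselves.

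A splicing cluster is a set of introns that share splice sites, and the PSI of an intron is its share of the split reads of the cluster, written as a fraction. The PSI printed here are values fitted per condition by the authors' splicing software LeafCutter, not counted shares of reads. Shares and ratios of shares below are of these fitted values. The PSI of the introns of a cluster sum to 1, and deltaPSI is PSI in dTAG minus PSI in Ctrl cells. Start and end of an intron are given as in the deposited tables, which name the last exon base on its left and the first exon base on its right in mm10.

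The sequences at the change with the smallest p-value, in *Utp14a*, are shown first. They are the acceptor of an alternative last exon, the acceptor of the next coding exon and the GGACT motifs inside the m6A peaks over the alternative exon. GGACT is a common form of the m6A consensus. Sequences are from the GRCm38 assembly, which has the coordinates of mm10, and run 5′ to 3′ on the plus strand. Capitals mark the AG of an acceptor, followed by 6 exon bases, or the motif.
*Utp14a* acceptor of the alternative last exon, chrX:48266395-48266420: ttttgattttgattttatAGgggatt
*Utp14a* acceptor of the coding exon, chrX:48272780-48272805: tgctttgttacctccttaAGgcgaga
*Utp14a* GGACT in the peak at the alternative acceptor, chrX:48266455-48266483: acttttaactttGGACTtctaaacattgt
*Utp14a* GGACT in the same peak, chrX:48266492-48266520: ttctagactatgGGACTttgaattgggac
*Utp14a* GGACT in the last of the 3 peaks, chrX:48266828-48266856: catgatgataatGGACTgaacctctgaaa

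*Utp14a* encodes a component of the small-subunit processome that is needed for processing of the 18S rRNA precursor. After dTAG-13 the fitted share of its junction to an alternative last exon, which lies inside an intron, was smaller. The junction from 48263632 to 48266415 on the X chromosome, annotated in the non-coding transcript Utp14a-202, had a PSI of 0.00807 in dTAG cells and 0.0666 in Ctrl cells in the authors' deposited table, a difference of -0.0585 and a share 8.25 times lower in dTAG cells. The junction from the same donor to the next coding exon (48272800) was at 0.951 in dTAG cells and 0.921 in Ctrl cells. The fall of the alternative exon thus went with a gain of the coding junction and of one more. This junction starts from an unannotated donor at 48272182 and ends at the same coding acceptor, and it was at 0.0408 in dTAG cells and 0.0122 in Ctrl cells. The authors' LeafCutter likelihood-ratio test gave p = 1.10e-07 for the cluster, with an adjusted p of 7.26e-05 over all tested clusters. It ranked 11 of the 7263 tested clusters by p-value and was the only cluster of the group with an adjusted p under 0.05, a level that 0.702% of all tested clusters reached. Among the 51 clusters of the data set at that level, its largest change was modest. Only 5 of the 51 changed less, and their median was 0.174.

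**Figure D1:**
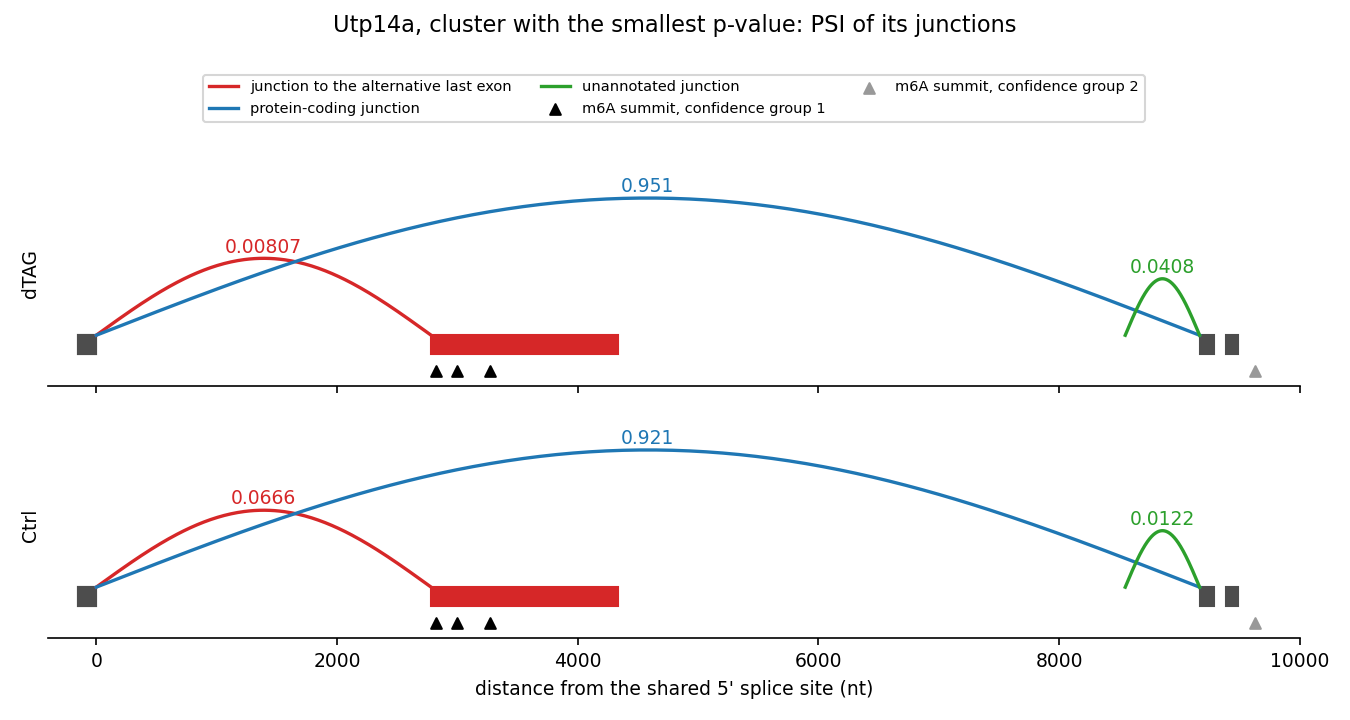
Junctions of the *Utp14a* cluster with the smallest p-value, drawn as arcs in dTAG cells (top) and Ctrl cells (bottom) over the distance in nt from the shared 5′ splice site, with PSI printed on each arc (arc height has no scale), exons as boxes and m6A peak summits as triangles. The arc into the red alternative last exon carries 0.00807 in dTAG and 0.0666 in Ctrl cells, and 3 summits lie within that exon, near its acceptor.

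The alternative last exon of *Utp14a* is also where intronic m6A was mapped in chromatin-associated RNA of other mouse embryonic stem cells by the study. In the study's list of intronic peaks, 3 peaks of confidence group 1 fall on this exon. Their summits lie 41 nt, 212 nt and 486 nt after the alternative acceptor. The first peak, from 48266332 to 48266540, spans the acceptor itself and holds 2 GGACT motifs, the middle one 0 and the last 1. Read in the sense of the RNA, the 5 letters occur in 358 of the 959 intronic peaks (37.3%), whose lengths differ. Another peak, of group 2, has its summit 457 nt after the coding acceptor. Levels of m6A in the cells of the splicing experiment were not analysed here, and the part of these peaks in the change was not tested.

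A second *Utp14a* cluster begins at the donor of the following exon. It holds 3 annotated coding introns and 2 unannotated skipping junctions, and it overlaps 2 group 2 peaks. The group 2 peak named above, from 48273196 to 48273315, is among them. Both skipping junctions had lower shares in dTAG cells, 0.00279 against 0.00690 in Ctrl cells for the junction from 48272919 to 48278367 and 0.00465 against 0.0115 for the one from 48273976. The authors' test gave p = 0.0753 (adjusted p = 0.794), above the limit used here.

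Taking all 85 clusters, 4 had a deposited p-value of at most 0.05 (4.71%), in *Utp14a*, *Ncl*, *Nop53* and *Pa2g4*, against 6.84% of all tested clusters (497 of 7263). The share is near the background and is no result about the group. In *Ncl*, *Nop53* and *Pa2g4* the adjusted p was above 0.2 (0.335, 0.669 and 0.682). In each of these 3 genes the dominant annotated site lost a little share in dTAG cells and sites with a low PSI gained it. Where such a site is called weak, its low use is meant and not its sequence. The sites are shown because they carry all calls besides *Utp14a*. Capitals mark the first 2 intron bases of a donor and the last 2 of an acceptor, and all 3 genes lie on the minus strand.
*Ncl* dominant donor, chr1:86359192-86359215: gctcgcaaagGTaagaggccttgg
*Ncl* unannotated donor, chr1:86358981-86359004: aagagcggagGCaggtttccggga
*Ncl* weak annotated donor, chr1:86358553-86358576: gctttaagagGTgatttcgagata
*Nop53* dominant acceptor, chr7:15942369-15942394: gccactctttccttactcAGcatcct
*Nop53* unannotated acceptor, chr7:15942353-15942378: tcagcatcctcgcacatcAGgtccct
*Pa2g4* dominant donor, chr10:128565726-128565749: atcgccaaccGTgagtgcggcctc
*Pa2g4* unannotated donor, chr10:128565755-128565778: tcgtgaccaaGTataagatggggg

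*Ncl* encodes nucleolin, an abundant nucleolar protein that binds rRNA precursors and acts in their transcription and processing. Its called cluster joins 3 alternative donors to 1 acceptor at 86358223 on chromosome 1. The donor at 86359206, used in Ncl-201 and Ncl-202, was at 0.949 in dTAG cells and 0.967 in Ctrl cells. The weak donor at 86358567, known from Ncl-203, was at 0.0364 in dTAG cells and 0.0217 in Ctrl cells, 1.68 times higher. An unannotated GC donor at 86358995 had 0.0145 in dTAG cells and 0.0111 in Ctrl cells. The deposited p was 0.00811. The other clusters of *Ncl* had p-values of 0.597 and 0.888, with largest deltaPSI of 0.000403 and 0.0102 in size.

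*Nop53*, whose yeast homologue brings the exosome to the large-subunit precursor, had a pair of acceptors 16 nt apart on chromosome 7. The unannotated acceptor at 15942358 was used at 0.0291 in dTAG cells and 0.0165 in Ctrl cells (p = 0.0372 by the authors' test), 1.76 times higher. The annotated one at 15942374 kept 0.971 in dTAG cells and 0.983 in Ctrl cells. *Pa2g4* encodes EBP1, a growth-regulated protein that binds ribosomes. It had an unannotated donor 29 nt upstream of the annotated one on chromosome 10, with 0.00831 in dTAG cells and 0.00352 in Ctrl cells (p = 0.0397 by the authors' test). The share was 2.36 times higher, yet the difference of 0.00479 was smaller than the median largest change of the group. A group 2 m6A peak lay in this intron, with its summit 253 nt after the annotated donor and 1 GGACT motif.

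**Figure D2:**
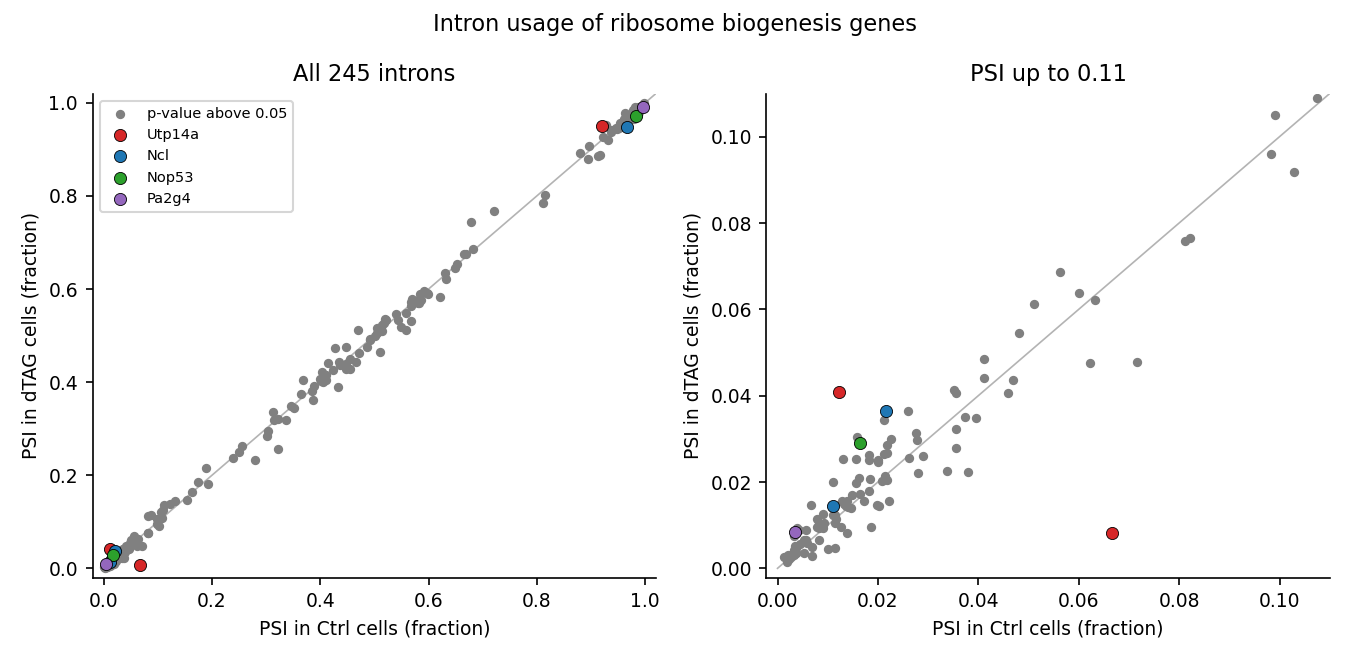
PSI in dTAG cells (y-axis) against PSI in Ctrl cells (x-axis), both as fractions, for each of the 245 introns (left) and for those with a PSI up to 0.11 (right); the line marks equal PSI and colours mark the 4 clusters with a p-value of at most 0.05. The point farthest from the line at low PSI is the *Utp14a* junction at 0.00807 in dTAG and 0.0666 in Ctrl cells.

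Changes in size were small throughout the group. None of the 85 clusters had a largest absolute deltaPSI of at least 0.1, a size that 4.63% of all tested clusters reached, and 2 reached 0.05 (*Nle1* and *Utp14a*), against 19.8% of all tested clusters. The median largest absolute deltaPSI was 0.00905 in the group and 0.0214 over all tested clusters, and 55.3% of clusters in the group, against 27.2% of all, stayed under 0.01. Of the 245 introns 31 changed by 0.02 or more, for which the share over all tested introns was not computed. The median absolute deltaPSI of coding introns was 0.00656 in the group and 0.0161 over all tested clusters. Depth per cluster is not in the tables, and the part of read depth or of PSI close to 0 or 1 in these sizes was not tested.

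**Figure D3:**
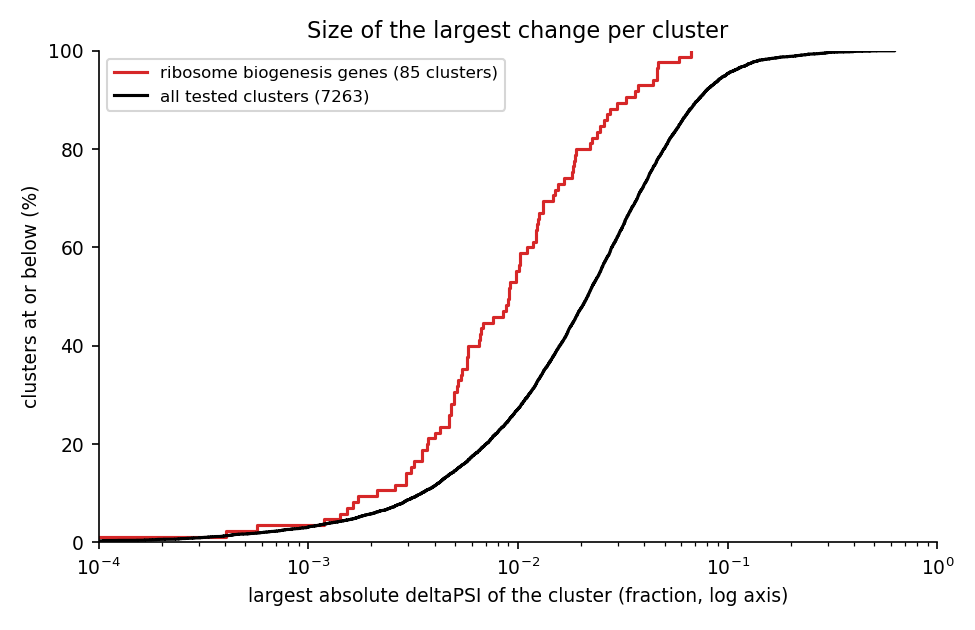
Cumulative share of clusters (y-axis, %) by largest absolute deltaPSI (x-axis, fraction, log axis) for the 85 clusters of ribosome biogenesis genes (red) and all 7263 tested clusters (black). The red curve lies to the left, with medians of 0.00905 and 0.0214.

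The largest difference of the group was in *Nle1*, the Notchless homologue, a WD-repeat factor that is removed from the large-subunit precursor during its maturation. Its 2 acceptors on chromosome 11 lie 64 nt apart. The coding acceptor at 82903197 was at 0.745 in dTAG cells and 0.678 in Ctrl cells, and the other, found only in a transcript annotated for nonsense-mediated decay (NMD), at 0.255 in dTAG cells and 0.322 in Ctrl cells. With a size of 0.0671 it did not pass the authors' test (p = 0.168, adjusted p = 0.882). A change larger than that of *Utp14a* therefore stood without a call, and the spread behind it is not in the tables.

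Among small-subunit factors (16 genes, 26 clusters, 71 introns), *Utp14a* held the 1 call, where 6.84% of all tested clusters were called. The median largest absolute deltaPSI was 0.00946. *Nol11*, a partner of the transcription-coupled part of the processome, had coding acceptors 60 nt apart, a multiple of 3. The upstream one (107173461 on chromosome 11) was at 0.767 in dTAG cells and 0.721 in Ctrl cells, with p = 0.112 in the authors' table. *Utp14b*, in mouse a retrotransposed copy of *Utp14a* that is needed for spermatogenesis, shares its first exons and its cluster with *Acsl3*, a fatty acid-activating enzyme. The intron from 78663280 to 78664326 on chromosome 1, which leads to *Utp14b*, was at 0.464 in dTAG cells and 0.511 in Ctrl cells (p = 0.399 in the authors' table), while the 3 other introns of the cluster had higher values by 0.00704 to 0.0233. All 3 are annotated in *Acsl3* transcripts, and the one with the largest difference, from 78658103 to 78663141 (0.135 in dTAG cells and 0.112 in Ctrl cells), is annotated in Utp14b-201 as well. Here 2 group 1 m6A peaks lay inside the cluster, with summits 2057 nt and 2292 nt after the *Utp14b* acceptor.

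*Tsr2*, whose yeast homologue escorts the small-subunit protein eS26, had coding donors 9 nt apart. The upstream one was used at 0.784 in dTAG cells and 0.811 in Ctrl cells (p = 0.109 in the authors' table). *Imp4*, a U3 snoRNP protein, had a junction seen only in NMD transcripts at 0.114 in dTAG cells and 0.0879 in Ctrl cells (p = 0.196 in the authors' table). Its other cluster had an unannotated acceptor at 0.0253 in dTAG cells and 0.0131 in Ctrl cells (p = 0.0781 by the authors' test). *Wdr43*, a processome subunit, had 4 clusters with p-values from 0.123 to 0.985. *Utp4*, a processome subunit that works beside *Nol11*, had p-values of 0.605 and 0.694. None of these passed the test. The other small-subunit genes were *Ltv1*, *Nol10*, *Nop14*, *Rrp36*, *Tsr1*, *Tsr3*, *Utp20*, *Wdr36* and *Wdr75*, with p-values from 0.0855 (*Tsr1*) to 0.950 (*Wdr36*). Their largest absolute deltaPSI ran from 0.000570 in *Wdr36* to 0.0226 in *Nol10*.

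Large-subunit factors (15 genes, 30 clusters, 86 introns) held 2 calls, *Nop53* and *Pa2g4*, where 6.84% of all tested clusters were called. Their median was 0.0104. *Pa2g4* was counted here, though 1 alternative below set it aside as a gene outside assembly. In *Rrp1b*, a nucleolar protein related to yeast Rrp1, coding introns on both sides of a 58-nt exon changed in opposite directions. The upstream intron was at 0.389 in dTAG cells and 0.433 in Ctrl cells, and the downstream one at 0.512 in dTAG cells and 0.469 in Ctrl cells (p = 0.442 by the authors' test). The NMD junction that skips the exon stayed close, at 0.0351 in dTAG cells and 0.0373 in Ctrl cells. The same kind of shift, between the introns before and after an exon that is nearly always included, appeared in *Nip7*, *Gnl2* and *Nop2*, with p-values of 0.273, 0.303 and 0.122. *Nip7* is a pre-rRNA processing factor, *Gnl2* a GTPase of the large-subunit precursor and *Nop2* a methyltransferase of 28S rRNA. In *Nip7* the upstream intron was at 0.404 in dTAG cells and 0.368 in Ctrl cells, in *Gnl2* at 0.532 in dTAG cells and 0.568 in Ctrl cells, and in *Nop2* at 0.475 in dTAG cells and 0.447 in Ctrl cells. The direction thus differed from gene to gene. Both introns of each pair occur together in an annotated transcript, and other annotated transcripts hold only 1 of them. Whether these shifts reflect read coverage or a choice between forms was not tested. *Gnl3*, which encodes the GTPase nucleostemin, had 5 clusters with p-values from 0.299 to 0.786, and its relative *Gnl3l* had 3 with p-values from 0.212 to 0.896. *Wdr12*, of the complex with PES1 and BOP1, had acceptors 4 nt apart, of which the unannotated one was at 0.0343 in dTAG cells and 0.0212 in Ctrl cells (p = 0.0907 by the authors' test). *Nol9*, a polynucleotide kinase of large-subunit rRNA processing, had 4 introns in 1 cluster, which did not pass (p-value 0.783). The remaining *Nol8*, *Nol12*, *Pes1* and *Rrp8* had p-values from 0.393 to 0.798 and largest absolute deltaPSI from 0.00466 in *Pes1* to 0.0238 in *Rrp8*, where an NMD junction was at 0.0478 in dTAG cells and 0.0716 in Ctrl cells.

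**Figure D4:**
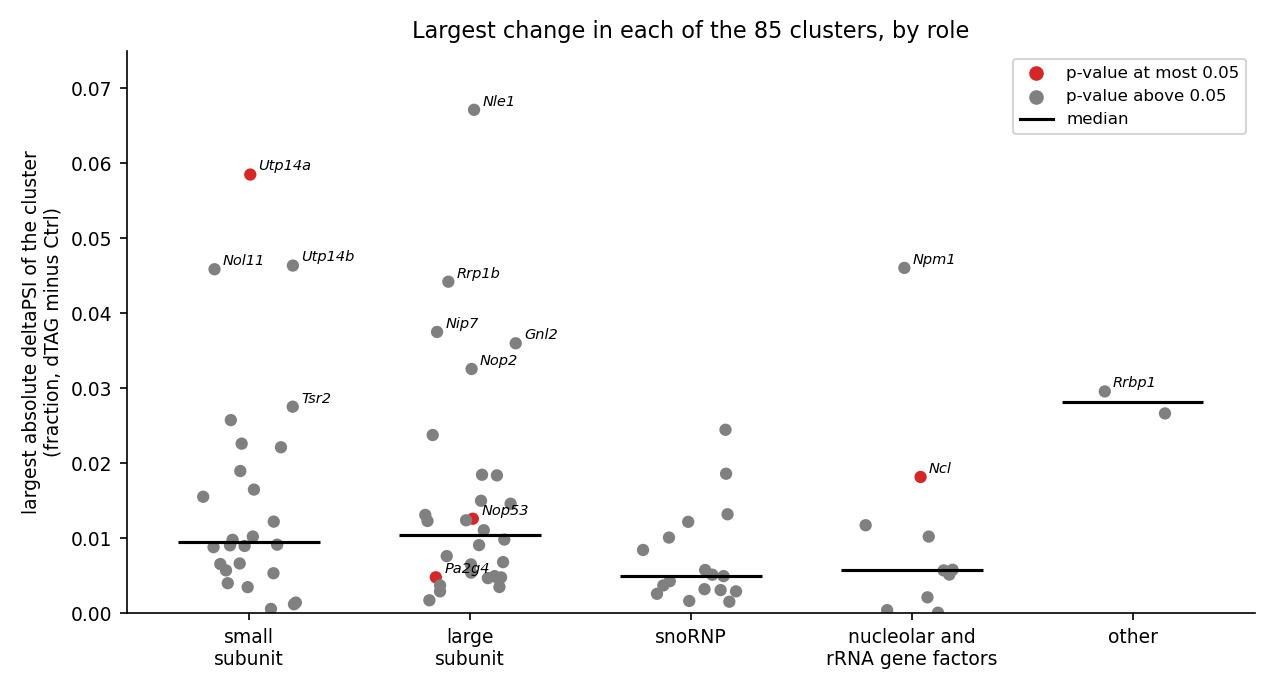
Largest absolute deltaPSI (y-axis, fraction) of each of the 85 clusters by role of the gene (x-axis), with red points for p-values of at most 0.05 and a line at the median of each role. *Nle1* and *Utp14a* lie above 0.05, and the 3 other red points are *Ncl* at 0.0182, *Nop53* at 0.0126 and *Pa2g4* at 0.00479.

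The snoRNP genes (4 genes, 17 clusters, 57 introns) had the lowest median of the role groups, 0.00494. They had 0 calls in the deposited test, with a smallest unadjusted p of 0.0824. Of all tested clusters 6.84% were called, so with 17 clusters the lack of calls is no result about these genes. *Dkc1* encodes dyskerin, the pseudouridine synthase of box H/ACA snoRNPs. All 6 of its clusters had p-values from 0.588 to 0.986, and no change above 0.00576. An NMD junction of *Dkc1* that skips a 65-nt exon was at 0.109 in dTAG cells and 0.107 in Ctrl cells. *Nolc1*, a chaperone of snoRNPs, had tandem acceptors 3 nt apart that were used almost equally. They show how close the alternatives are, and capitals mark the AG of each (plus strand).
*Nolc1* upstream acceptor, chr19:46079888-46079913: tctttgttctcttgttttAGcagaag
*Nolc1* downstream acceptor, chr19:46079891-46079916: ttgttctcttgttttagcAGaaggca
The upstream acceptor was at 0.476 in dTAG cells and 0.487 in Ctrl cells, the downstream one at 0.524 in dTAG cells and 0.513 in Ctrl cells. A second *Nolc1* cluster, with 3 coding acceptors within 18 nt, changed by no more than 0.0132, and the authors' test gave p-values of 0.590 and 0.664.

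*Nop56* and *Nop58* encode the paired core proteins of box C/D snoRNPs and host snoRNA genes in their introns. Of all tested clusters 1.40% (102 of 7263) had an intron that holds an annotated snoRNA gene on the same strand, and of the clusters in the group 8.24% (7 of 85), in *Nop56*, *Nop58*, *Gnl3* and *Dkc1*. In *Nop58* the intron from 59692389 to 59695978 on chromosome 1, which holds the snoRNA gene *Gm26293*, was at 0.362 in dTAG cells and 0.387 in Ctrl cells, and the junction from a later donor (59692728) that leaves this snoRNA gene outside the intron was at 0.146 in dTAG cells and 0.132 in Ctrl cells. The other introns of the cluster that hold *Gm26293* were higher in dTAG cells, at 0.0413 in dTAG cells and 0.0352 in Ctrl cells (59692389 to 59692612) and at 0.00274 in dTAG cells and 0.00120 in Ctrl cells (59690562 to 59695978), so introns with this snoRNA gene did not share a direction. The p-value of the cluster was 0.0824 in the authors' table. In *Nop56* the intron from 130277132 to 130277476 on chromosome 2, which holds *Gm23187*, was at 0.319 in dTAG cells and 0.337 in Ctrl cells, and a donor inside it, at 130277314, at 0.164 in dTAG cells and 0.163 in Ctrl cells (p = 0.123 in the authors' table). The longer introns that also hold *Gm23187* were higher in dTAG cells, at 0.0407 in dTAG cells and 0.0355 in Ctrl cells (from 130276653) and at 0.0286 in dTAG cells and 0.0218 in Ctrl cells (from 130276858). In *Gnl3* 3 introns of a cluster hold *Snord69*. The coding one was at 0.572 in dTAG cells and 0.568 in Ctrl cells (p = 0.426 in the authors' table). The unannotated one from 31014120 to 31014590 on chromosome 14 had the largest change of the cluster, with 0.00456 in dTAG cells and 0.00997 in Ctrl cells, and the other unannotated one was at 0.0215 in dTAG cells and 0.0214 in Ctrl cells. None of the 7 clusters had a p-value of at most 0.05, against 6.84% of all tested clusters.

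The remaining nucleolar genes were *Npm1*, *Rrn3* and *Ncl*. *Npm1* encodes nucleophosmin, a histone and ribosome chaperone of the nucleolus, and 1 of its clusters joins a donor at 33156003 on chromosome 11 to 3 coding acceptors. The acceptor of Npm1-201 and Npm1-202 (33154060) was at 0.513 in dTAG cells and 0.559 in Ctrl cells, and that of Npm1-204 (33155220) at 0.473 in dTAG cells and 0.427 in Ctrl cells. The difference of 0.0460 in size did not pass the authors' test (p = 0.679). The other *Npm1* cluster moved by 6.53e-05. *Rrn3*, which brings RNA polymerase I to the rRNA genes, had 5 clusters with p-values from 0.414 to 0.855 and no change above 0.0117. *Rrbp1*, which the name rule brought in, encodes a ribosome-binding protein of the endoplasmic reticulum. Its first cluster had a more distal acceptor at 0.888 in dTAG cells and 0.917 in Ctrl cells (p = 0.417 by the authors' test).

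By form, 26 of the 85 clusters were pairs of alternative acceptors, 12 pairs of alternative donors, 21 had the layout of a cassette exon, 5 had more than 2 donors or acceptors and 21 were of other forms. The layout of the *Utp14a* cluster is that of a cassette, but the exon it implies would be 5768 nt long and the alternative last exon lies at its start, so it was set aside. Of the 20 other cassette exons 3 (15.0%) had a length that is a multiple of 3, against 44.3% of those of all tested clusters. In 8 of the 26 acceptor pairs (30.8%) the sites lay at most 6 nt apart, against 35.7% of all such pairs.

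The junction that skips the cassette exon was rare in most of these genes, with a PSI under 0.05 in both conditions in 17 of 20 clusters (35.6% over all). In the authors' deposited table its share was higher in dTAG cells in 17 of 20, against 57.1% over all tested clusters, but the median difference was 0.00169 against 0.00198 over all. The largest was in *Nol10*, a small-subunit factor, with 0.0304 in dTAG cells and 0.0158 in Ctrl cells (p = 0.146 by the authors' test). *Rrbp1* followed with 0.0365 in dTAG cells and 0.0260 in Ctrl cells. None of the 20 clusters passed the test, several come from 1 gene, and in *Tsr3*, *Wdr43* and 1 of the 3 *Rrn3* clusters the junction was lower in dTAG cells. *Nol10* and *Tsr3* were named after their values were seen.

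**Figure D5:**
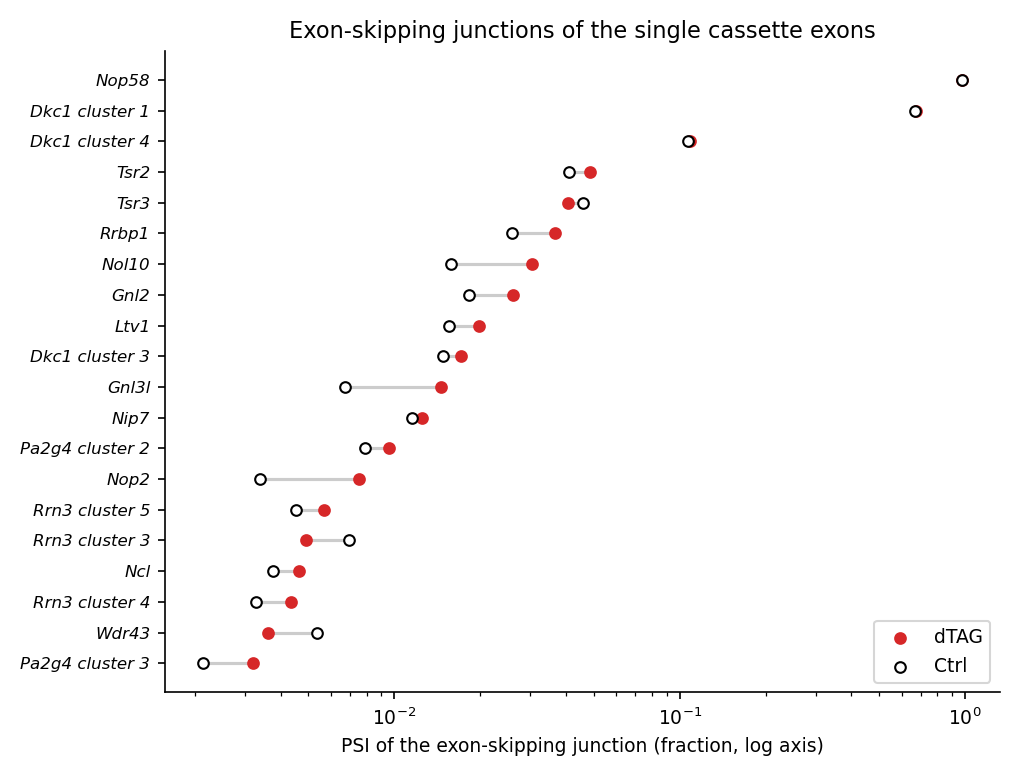
PSI of the exon-skipping junction (x-axis, fraction, log axis) in dTAG cells (filled) and Ctrl cells (open) for each of the 20 single cassette exons (y-axis, gene and cluster number along the gene). The share is higher in dTAG cells in 17 of 20, by at most 0.0146 (*Nol10*).

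Against GENCODE vM21, 172 of the 245 introns (70.2%) were annotated, beside 74.7% over all tested clusters. Of the others, 73 in 29 genes, 69 had a PSI under 0.05 in both conditions, a share not computed over all tested clusters. Their median PSI was 0.0146 in dTAG cells and 0.0131 in Ctrl cells, beside 0.0426 in dTAG cells and 0.0415 in Ctrl cells over all unannotated introns. The unannotated introns were higher in dTAG cells in 45 of 73 (61.6%, beside 51.9% over all), and introns of NMD transcripts alone in 10 of 15 (66.7%, beside 55.0%). Introns of a cluster share 1 total and are not independent. Matches of the donor to the 9 letters CAGGTAAGT had a median of 6 in both coding and unannotated introns, and introns of a cluster can share a donor. Intronic m6A peaks lay within 500 nt of 4 of the 85 clusters (4.71%), beside 2.45% of all tested clusters. The 4 were both of *Utp14a*, that of *Utp14b* and the first of *Pa2g4*, and those of *Utp14a* share a group 2 peak.

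Other ribosome biogenesis genes outside the name rule were listed separately, and 61 of 106 had tested clusters. Of their 114 clusters, 13 in 11 genes had a p-value of at most 0.05 in the authors' test (11.4%, beside 6.84% of all tested clusters). An adjusted p under 0.05 was reached by 0, beside 0.702% of all tested clusters. An adjusted p under 0.2 was reached by 2, beside 1.58% of all tested clusters. A cluster has no single direction, so calls are not split into higher and lower. The smallest p-value was in *Cebpz*, a homologue of a yeast factor for the large subunit, where an NMD junction was at 0.112 in dTAG cells and 0.0261 in Ctrl cells (p = 3.93e-04 by the authors' test, adjusted p = 0.0538). In *Tcof1*, which encodes treacle, a factor for rRNA gene transcription, an intron was at 0.933 in dTAG cells and 0.972 in Ctrl cells (p = 0.00199 by the authors' test, adjusted p = 0.156). *Urb2* had 0.285 in dTAG cells and 0.340 in Ctrl cells for a coding intron and *Rpf1* 0.957 in dTAG cells and 0.985 in Ctrl cells (p-values 0.00378 and 0.00394 in the authors' table). Both act in large-subunit assembly. The median largest absolute deltaPSI of this list was 0.0132, beside 0.0214 over all tested clusters. Of its 114 clusters 3 reached 0.1, a size that 4.63% of all tested clusters reached. They were in *Efl1*, *Nom1* and *Ubtf*, which were named after their values were seen.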

How the data were processed

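The authors mapped 4sU-seq reads to mm10 with STAR (2.5.2b, per the submitters' processing notes), kept uniquely mapped split reads and ran LeafCutter on 6 dTAG and 6 Ctrl samples, both clones together. The deposited tables give, per intron, a fitted PSI (fraction) for each condition, its difference and an effect as natural log, which was not used. Per cluster, the authors give a likelihood-ratio score, degrees of freedom, a p-value and an adjusted p-value. These p-values are the authors' own comparison and are printed as such, since values per sample were not analysed here. They equalled the chi-square tail of the score (largest difference 7.63e-15). Adjusted p-values here are a Benjamini-Hochberg adjustment of them over all 7263 tested clusters, and the deposited adjusted column was not used.

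Deposited introns were joined to clusters by chromosome and cluster name. They matched GENCODE vM21 introns without tolerance after moving 1 base inward at each end, and all 245 had GT-AG or GC-AG ends in GRCm38. The gene strand equalled the strand of these ends in 85 of 85 clusters. Introns were classed as coding, NMD only, other non-coding only or unannotated by the types of the transcripts that hold them. Intronic m6A peaks (363 of confidence group 1 and 596 of group 2, from the study's supplement) were assigned within 500 nt on the same strand. Exonic peaks were not used here.

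Genes, lists, roles and tests were chosen with earlier results of these data known. Named genes are those with a p-value of at most 0.05, those of the 10 largest changes, *Ncl*, *Npm1*, *Fbl*, *Dkc1*, *Nolc1*, *Nop56* and *Nop58*, up to 4 more per role with most clusters, those with an intronic m6A peak within 500 nt, and up to 4 genes of the list outside the rule. Alternatives concerned the call rule, the size limit, shared gene names, genes outside assembly, the m6A window and the snoRNA strand. The adjustment and the classing of cluster forms were tested on simulated data. Python 3.11.15, numpy 2.4.6, scipy 1.17.1, pandas 2.3.3, pysam 0.24.0 and matplotlib 3.10.9 were used.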

Additional observations from a re-analysis of the deposited data

How the results depend on the processing

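Of 17 alternatives to 6 results, 13 gave a value within 1.5 times the one reported. The count of 4 called clusters became 1 with an adjusted p under 0.05 and 1 with an adjusted p under 0.2 (*Utp14a* in both), and the count of 0 clusters with a deltaPSI of at least 0.1 became 2 at a limit of 0.05. The count of 4 clusters with an intronic m6A peak became 2 with confidence group 1 only. Without *Rrbp1* and *Pa2g4* 3 clusters were called. The share of annotated introns was 97.3% among those with a PSI of at least 0.05, beside 84.6% of all tested.

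No paired analysis was possible because the deposited tables pool both clones and all replicates without values for single samples, and for the same reason leaving out a replicate or a clone was not possible. Split reads per cluster are not in the tables, so a difference such as that of *Nle1* has no interval here.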
